A study of Caenorhabditis elegans with 2 samples.

Results

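The chromatin modifier genes of Caenorhabditis elegans were examined for binding of IRX-1 in their promoters. They were taken as the protein-coding genes whose names begin with set-, met-, hda-, jmjd-, swsn-, mys-, hpl-, mes- or cbp-, which gave 69 of 19973 protein-coding genes. The names cover SET-domain proteins, histone deacetylases, JmjC-domain proteins, SWI/SNF subunits, acetyltransferases, HP1 proteins and the MES proteins. By its known role mes-1, a receptor-like protein of the germline precursors, is not a chromatin protein, and it entered by name alone. The data are chromatin immunoprecipitation with sequencing (ChIP-seq) from 2 biological replicates of 1 group, and no second condition was part of it. Per the labels, both replicates are hermaphrodite L1 larvae of strain OP536 (unc-119(tm4063) III; wgIs536), which carry IRX-1 with a GFP-FLAG tag at its C-terminus. They were collected 6 hours after the hatchlings had been synchronized by starvation, and chromatin of whole animals was precipitated with an antibody against GFP by the samples' description, whereas their antibody entry reads irx-1. The tagged copy is a transgene, the unc-119 mutation is shared by all animals, and whole larvae mix all cell types, so a site bound in a few cells and one bound weakly in many cannot be told apart.

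IRX-1 is a homeodomain transcription factor of the Iroquois family, known in worms for its part in the remodelling of motor neuron synapses. Chromatin modifiers write, read or remove marks on histone tails or move nucleosomes. Acetyltransferases such as CBP-1 are linked to active promoters, deacetylases remove the acetyl groups, and methyltransferases with a SET domain act on single lysines with opposite outcomes, from the active mark H3K4 methylation to the Polycomb mark H3K27 methylation. Some JmjC-domain enzymes remove methyl groups, though a jmjd- name alone does not show this activity. HP1 proteins bind methylated H3K9, and the SWI/SNF complex uses ATP to remodel nucleosomes.

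Each gene was given a promoter window from 1000 bp upstream to 200 bp downstream of its annotated start, and a gene counts as occupied where the summit of a peak in the optimal list falls inside it. That list holds 2445 peaks that passed the authors' cut on the irreproducible discovery rate, with scores of 81.4 to 1185 and a median of 130.7. Permissive lists, which also hold background, have 28191 regions for both replicates pooled, 30000 for replicate 1 and 24949 for replicate 2. Scores are the authors' own. All 2445 optimal peaks have the same summit and score in the pooled list, so these lists share 1 scale, and scores of a replicate list are compared only within it, by rank. Library depth is unknown.

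The 6 highest-scoring occupied sites are shown as 101 bases centred on the summit, to let the promoters behind the main values be read directly. Each is on ce11, written 5′ to 3′ along the strand of the gene, so that the gene start lies to the right. Capitals mark every match to the motifs GAGAGA, then CGCGCG, then GACGCA and then ACATGT on either strand. None of these windows holds an annotated untranslated region. They are, in the order printed, chrIII:13643720-13643820 (plus strand), chrIII:9765541-9765641 (plus), chrV:10526069-10526169 (plus), chrII:6331569-6331669 (minus), chrIV:4390623-4390723 (plus) and chrIII:10334083-10334183 (minus).
set-16: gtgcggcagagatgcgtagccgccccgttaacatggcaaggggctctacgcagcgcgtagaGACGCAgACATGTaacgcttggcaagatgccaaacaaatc
cbp-1: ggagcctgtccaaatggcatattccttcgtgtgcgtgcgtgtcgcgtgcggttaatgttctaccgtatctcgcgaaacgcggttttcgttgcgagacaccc
hda-11: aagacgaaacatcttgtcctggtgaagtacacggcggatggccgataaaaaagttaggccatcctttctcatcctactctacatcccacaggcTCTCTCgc
set-4: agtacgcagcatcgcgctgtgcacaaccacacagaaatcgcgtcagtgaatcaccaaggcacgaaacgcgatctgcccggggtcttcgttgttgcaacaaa
set-21: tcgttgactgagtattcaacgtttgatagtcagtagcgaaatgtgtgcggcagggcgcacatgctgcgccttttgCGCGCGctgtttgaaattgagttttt
jmjd-4: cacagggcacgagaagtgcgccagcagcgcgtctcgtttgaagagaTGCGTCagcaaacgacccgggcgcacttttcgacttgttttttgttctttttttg

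Chromatin modifier genes were occupied in 18 of 69 cases (26.1%, 95% Wilson interval 17.2 to 37.5%), against 9.60% of all protein-coding genes. The 18 were set-2, set-4, set-16, set-21, set-26, met-1, mes-2, mes-6, hda-6, hda-11, jmjd-1.2, jmjd-4, mys-1, cbp-1, swsn-1, swsn-3, swsn-6 and swsn-7. Each window held 1 optimal summit, and the 18 summits were 18 different peaks, whose ce11 coordinates stand beside their scores. A region of the pooled list lay in the windows of 42 members (60.9%), against 38.1% of all genes. Both replicate lists had a summit in the windows of 30 members (43.5%), against 25.6% of all genes. Intervals cover counting error only, and the members, chosen by name with earlier results of these data known, are no sample of genes.

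The share was alike in each replicate. Among the 2445 highest-scoring regions of replicate 1, a summit lay in 17 windows (24.6%), against 9.31% of all genes. In the same number of regions of replicate 2 it lay in 19 (27.5%), against 9.24% of all genes. The mean was 26.1% ± 2.05 for the members and 9.27% ± 0.0496 for all genes (SD, n = 2). Replicate 1 missed mes-6, and replicate 2 added swsn-4.

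**Figure D1:**
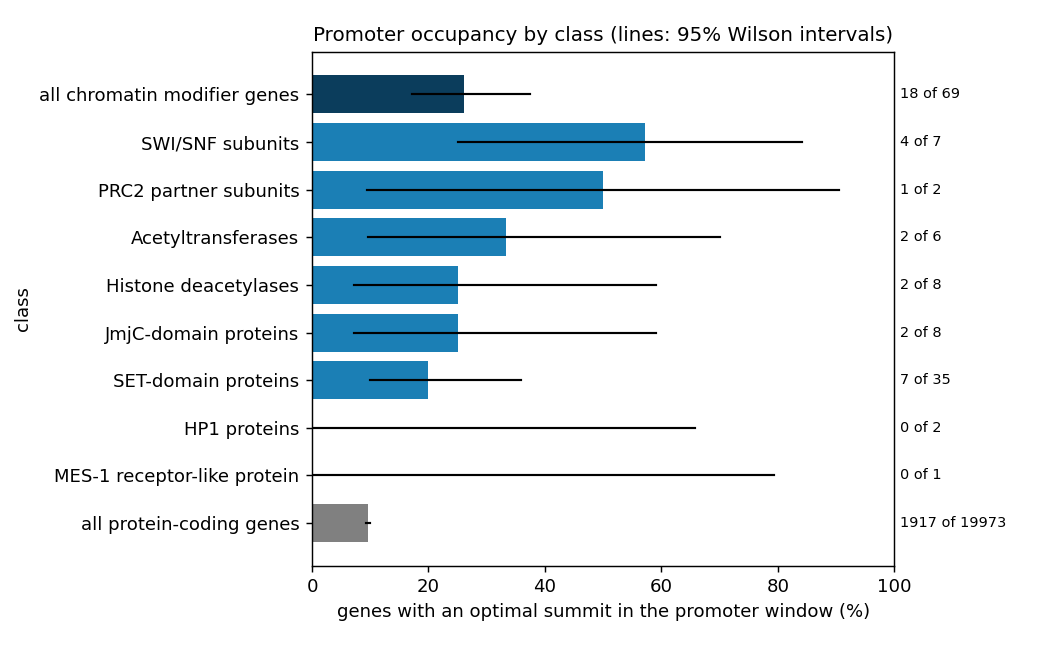
Share of genes with an optimal summit in the promoter window, in percent, for all 69 chromatin modifier genes, for each class, and for all protein-coding genes (bottom bar). Lines are 95% Wilson intervals and the counts stand at the right. SWI/SNF subunits named swsn- reach 4 of 7 and SET-domain proteins 7 of 35, with wide intervals that overlap.

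The occupied members scored high within the list. Their median score was 259.7, against 149.1 over the 1917 protein-coding genes with an optimal summit. Of the 18, 15 scored above the median peak, as did 1118 of those 1917 genes. Scores reached at least 200 in the windows of 13 members (18.8%), against 3.22% of all genes. At 400 or more there were 3 members (4.35%), against 0.841% of all genes. No member reached 700, and 29 other protein-coding genes did. Over the 42 members with a pooled region the median was 61.0, against 44.8 over the 7614 genes with one. With regions given to the nearest gene start the medians were closer, 45.8 for the members and 40.6 for all genes.

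**Figure D2:**
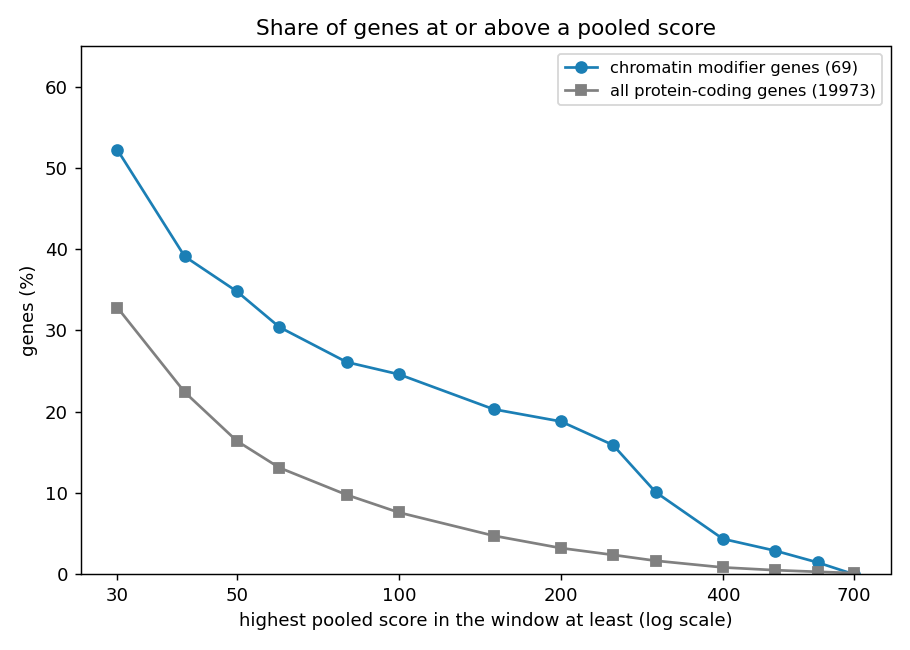
Percent of genes whose highest pooled score in the promoter window is at or above the value on the log-scaled horizontal axis, for the 69 chromatin modifier genes and for all 19973 protein-coding genes. The members lie above all genes from a score of 30 (52.2% against 32.8%) to 600 (1.45% against 0.300%).

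Among the methyltransferases, set-16 had the highest score. SET-16, the worm MLL-like H3K4 methyltransferase, had a peak that ranked 35 of 2445 (score 698.7, chrIII:13643617-13643875), 146 bp upstream of the gene start. It scored 378.7 in replicate 1 (rank 36) and 322.8 in replicate 2 (rank 35), so the replicates placed it alike. The summit lies between set-16 and drr-2, a gene on the opposite strand that starts 200 bp away. SET-2, the catalytic subunit of the SET1/COMPASS complex, had a peak of score 304.4 (rank 316, chrIII:4930415-4930546) at 274 bp upstream. It scored 163.0 in replicate 1 (rank 341) and 140.8 in replicate 2 (rank 297). SET-17, another H3K4 enzyme, active in the germ line, had pooled regions of 45.4 and 35.2, both below the optimal threshold.

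Of the genes for H4K20 methylation, set-4 was occupied and set-1 was not. SET-4, which adds the second and further methyl groups and acts in dosage compensation of X, had a peak of score 393.0 (rank 182, chrII:6331526-6331727) at 278 bp upstream. Replicate 1 gave it 219.8 (rank 176) and replicate 2 gave it 174.0 (rank 203). SET-1, which places the initial methyl group, had a pooled region of 35.9 (rank 14456), 10 bp inside the gene start, with 20.8 in replicate 1 and 15.8 in replicate 2. Among all 28191 pooled regions the one at set-1 thus scored far below the threshold of 81.4.

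The Polycomb-type complex MES-2/MES-3/MES-6, which methylates H3K27, was occupied at 2 of its 3 genes, against 9.60% of all genes. MES-2, the catalytic subunit and a relative of fly Enhancer of zeste, had a peak of score 193.2 (rank 674, chrII:14383644-14384053) at 124 bp upstream, with 108.8 in replicate 1 (rank 662) and 89.6 in replicate 2 (rank 665). MES-6, its WD-repeat partner, had the weakest optimal peak of the members, at 87.8 (rank 2177, chrIV:8510912-8511321), 167 bp upstream. The replicates disagreed there: replicate 1 had 28.4 (rank 7355) and replicate 2 had 43.3 (rank 2020). No list held a summit in the window of mes-3.

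H3K36 and H3K9 methyltransferases were mixed. MET-1, which trimethylates H3K36, had a peak of score 137.9 (rank 1132, chrI:4253905-4254314) at 87 bp upstream, inside an intron of C43E11.12, which ends 57 bp before met-1. It scored 90.7 in replicate 1 (rank 903) and 54.3 in replicate 2 (rank 1400). MES-4, which maintains H3K36 methylation in the germ line, had a pooled region of 48.1 below the threshold, with 26.8 in replicate 1 and 19.9 in replicate 2. Of the H3K9 enzymes, met-2 had no summit in any list. The window of set-25 held a pooled region of 65.3, with 38.5 in replicate 1 and 24.7 in replicate 2, at 16 bp inside the gene start. For set-32, which acts with small RNAs in inheritance of silencing, the region scored 29.8, with no summit in replicate 1. None of these 3 H3K9 genes was occupied, a count too small to be told from the 9.60% of all genes.

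The other SET-domain genes with an optimal summit were set-21 and set-26. The peak of set-21 scored 387.2 (rank 194, chrIV:4390550-4390768), with 223.1 in replicate 1 (rank 169) and 161.1 in replicate 2 (rank 231). It lies 171 bp upstream of set-21 but 83 bp upstream of rpl-7A, a ribosomal protein gene on the opposite strand, so the gene start nearest to this summit is not that of the member. The peak of set-26, which encodes a PHD and SET domain protein linked to lifespan, scored 235.3 (rank 504, chrIV:16656221-16656630), with 140.3 in replicate 1 (rank 437) and 99.1 in replicate 2 (rank 566). It lies 543 bp upstream of set-26 and 187 bp from the start of tsr-2, a ribosome biogenesis gene. The close paralog set-9 had a pooled region of 28.5 and no summit in either replicate list. How reads shared by such paralogs were placed is not given in the sources used here.

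SET-domain proteins as a class were occupied in 7 of 35 cases (interval 10.0 to 35.9%), against 9.60% of all genes. The lower end of this interval lies close to that share. A further 11 had pooled regions below the threshold, and 17 had no summit in any list. Both states were common among all genes too. Genes with no summit in any list ran from 1024 of 2640 on chromosome III to 2000 of 3449 on II. The 17 of 35 thus do not set the class apart. The 17 were met-2, set-5, set-8, set-10, set-11, set-12, set-13, set-14, set-15, set-18, set-22, set-23, set-24, set-27, set-28, set-30 and set-31. For 2 of these an optimal summit lay outside the window, 1149 bp upstream of set-15 (score 94.0, rank 1959) and in an intron 1001 bp inside set-18 (115.9, rank 1448). These 2 were the only members with an optimal summit from 1001 to 2000 bp upstream or in the gene body beyond the window.

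Acetyltransferases were occupied in 2 of 6 cases (33.3%, interval 9.68 to 70.0%), against 9.60% of all genes. CBP-1, the worm p300/CBP, had the member peak with the second-highest score, 500.2 (rank 101, chrIII:9765485-9765722), with 278.2 in replicate 1 (rank 96) and 220.1 in replicate 2 (rank 103). It was also the most distal of the 18, at 918 bp upstream, near the edge of the window and outside narrower ones. The next protein-coding gene upstream, gcc-2, starts 4365 bp away, and the noncoding genes R10E11.10 and R10E11.12 start nearer to the summit than cbp-1 does, at 482 bp and 586 bp. MYS-1, the Tip60-type MYST acetyltransferase, had a peak of 213.5 (rank 585, chrV:7084714-7085123) at 257 bp upstream, with 103.0 in replicate 1 (rank 727) and 106.4 in replicate 2 (rank 504). The MYST gene mys-2 had a pooled region of 29.3 with no summit in replicate 1, and mys-4 had none in any list. Of the CBP-related genes, cbp-3 had a pooled region of 29.9, and cbp-2, which starts inside cbp-3, had a summit in replicate 2 only (19.4).

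Histone deacetylases were occupied in 2 of 8 cases (25.0%, interval 7.15 to 59.1%), against 9.60% of all genes. None of the 3 class I genes was among them, a count too small to be told from that share of all genes. HDA-11, the class IV deacetylase, had a peak of score 424.6 (rank 148, chrV:10526021-10526213) at 65 bp upstream, with 219.7 in replicate 1 (rank 177) and 199.5 in replicate 2 (rank 125). Its window shares the summit with C35A5.8, 211 bp away on the other strand. HDA-6, a class II enzyme related to human HDAC6, had the summit nearest to its start, 29 bp upstream, with a score of 299.1 (rank 330, chrIV:5364275-5364390), 164.5 in replicate 1 (rank 334) and 132.2 in replicate 2 (rank 337). The class I genes, whose products sit in repressor complexes, had low values. Pooled regions scored 28.4 at hda-1 and 34.6 at hda-3, and hda-2 had a summit in replicate 1 alone (17.1). The class II genes hda-5 and hda-10 had pooled regions of 32.4 and 32.6, and hda-4 had no summit in any list.

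JmjC-domain genes were occupied in 2 of 8 cases (25.0%, interval 7.15 to 59.1%), against 9.60% of all genes. JMJD-1.2, a demethylase known for its role in the mitochondrial stress response, had a peak of 258.3 (rank 431, chrIV:4660375-4660784), with 132.7 in replicate 1 (rank 485) and 132.1 in replicate 2 (rank 338). It lies 411 bp upstream of jmjd-1.2 and 379 bp from F29B9.11 on the opposite strand. The peak of jmjd-4 scored 330.9 (rank 267, chrIII:10334073-10334231) at 115 bp upstream, with 179.4 in replicate 1 (rank 286) and 150.8 in replicate 2 (rank 254). It is shared with mev-1, which encodes a subunit of succinate dehydrogenase and starts 144 bp from the summit. The H3K27 demethylase genes jmjd-3.1, jmjd-3.2 and jmjd-3.3, all on X, had no optimal summit. So few genes cannot be told from the 7.69% of all genes on X. Pooled regions scored 30.7 at jmjd-3.2 and 35.7 at jmjd-3.3, and jmjd-3.1 had a summit in replicate 2 only (14.9). Pooled regions of jmjd-5 (46.2) and jmjd-2 (27.2) were below the threshold, and jmjd-1.1 had none in any list.

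SWI/SNF genes named swsn- were occupied in 4 of 7 cases (57.1%, interval 25.0 to 84.2%), against 9.60% of all genes. SWI/SNF genes with other names stand among the remodellers outside the naming rule. The peaks of swsn-3, an HMG-box subunit, and swsn-6, an actin-related subunit, had like scores of 260.3 (rank 419, chrIII:2768753-2768911) and 259.1 (rank 428, chrIV:5394693-5395102). For swsn-3 the values were 129.6 in replicate 1 (rank 508) and 134.6 in replicate 2 (rank 331), and its summit lies 160 bp upstream in an intron of cox-6B. For swsn-6 they were 140.4 (rank 434) and 109.3 (rank 486), and its summit lies 135 bp upstream and 94 bp from perm-3 on the opposite strand. The genes of swsn-7, a subunit of the PBAF form, and swsn-1, a core subunit, had weaker peaks. That of swsn-7 scored 114.9 (rank 1463, chrII:8028199-8028608) at 641 bp upstream, with 73.2 in replicate 1 (rank 1238) and 46.9 in replicate 2 (rank 1780). Its summit lies in a transcript of the noncoding gene C08B11.11. The noncoding genes C08B11.13 and C08B11.11 start nearer to it than swsn-7 does, at 159 bp and 234 bp. The peak of swsn-1 scored 101.0 (rank 1762, chrV:20249672-20250081) at 389 bp upstream, with 49.3 in replicate 1 (rank 2268) and 42.4 in replicate 2 (rank 2083). The gene of the ATPase, swsn-4, was the member just below the threshold, with a region of 65.9 at 538 bp upstream. Its best region scored 37.3 in replicate 1 (rank 3793, at -376 bp) and 40.4 in replicate 2 (rank 2265, at -544 bp), inside the top regions of replicate 2. The window of swsn-2.2 held a pooled region of 56.7, and swsn-9, another PBAF subunit, had none in any list.

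**Figure D3:**
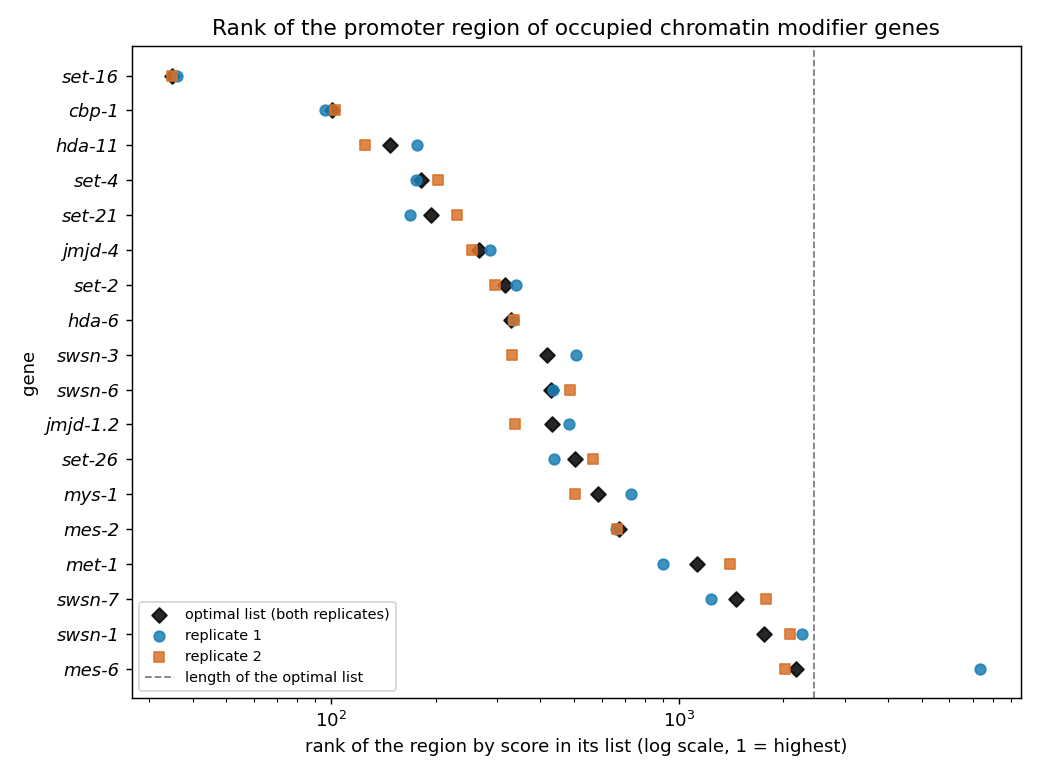
Rank by score of the region at each of the 18 occupied genes in the optimal list, in replicate 1 and in replicate 2 (log scale, 1 is the highest). The dashed line marks the length of the optimal list, 2445, and mes-6 in replicate 1 (rank 7355) is the point to its right.

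Across the 18 occupied genes, replicate regions were matched to the optimal summit by position. Of the 18, 17 had a matched region within the top 2445 of both lists, all but mes-6. Spearman's rho of the replicate scores was 0.948 over these 18 sites, a description across sites that were selected for reproducibility. Replicate summits lay a median of 7.50 bp apart and at most 54 bp, and 14 of 18 within 20 bp. Over all members with a summit, the median percentile of the best region in its list (100 is the highest score) was 88.0 in replicate 1 (37 members) and 89.7 in replicate 2 (38 members), or 88.9 ± 1.23 (SD, n = 2), against 69.6 ± 0.305 over all genes.

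Below the threshold, 24 members had pooled regions with scores of 27.2 to 65.9 and a median of 35.8. Such regions were common among all genes too, of which 38.1% had a pooled region and 9.60% an optimal summit. Between these and mes-6 (87.8) no member lay. After swsn-4 the highest were set-20 (65.5), set-25 (65.3), swsn-2.2 (56.7), set-3 (52.9), set-29 (50.5), mes-4 (48.1), jmjd-5 (46.2), set-17 (45.4) and set-6 (38.0). A summit in both replicate lists was present for 12 of the 24. The others split into 6 with one in replicate 1 only, 5 in replicate 2 only and 1 in neither. The same split over all genes is not given here. The region in the window of mes-1, the receptor-like protein, scored 36.5. Of the HP1 genes, hpl-1 had no summit in any list and hpl-2 had one in replicate 2 only (14.8). That is 0 of 2 occupied (interval 0 to 65.8%), too few to be told from the 9.60% of all genes. In all, 27 members had no pooled summit, of which 4 had one in a replicate list and 23 in none. Among all genes, those with no summit in any list ran from 1024 of 2640 on chromosome III to 2000 of 3449 on II.

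All 18 occupied members had the summit upstream of the start, as did 95.9% of all genes with an optimal summit. The median position was -169.0 bp, with a range from -918 bp at cbp-1 to -29 bp at hda-6, and the median over all genes was -239.0 bp. Within 300 bp upstream lay 13 of 18 (72.2%), against 58.1% for all genes. Intergenic sequence held 15 of the 18 summits, introns of other genes held 2 (met-1 and swsn-3), and a noncoding exon held 1 (swsn-7).

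**Figure D4:**
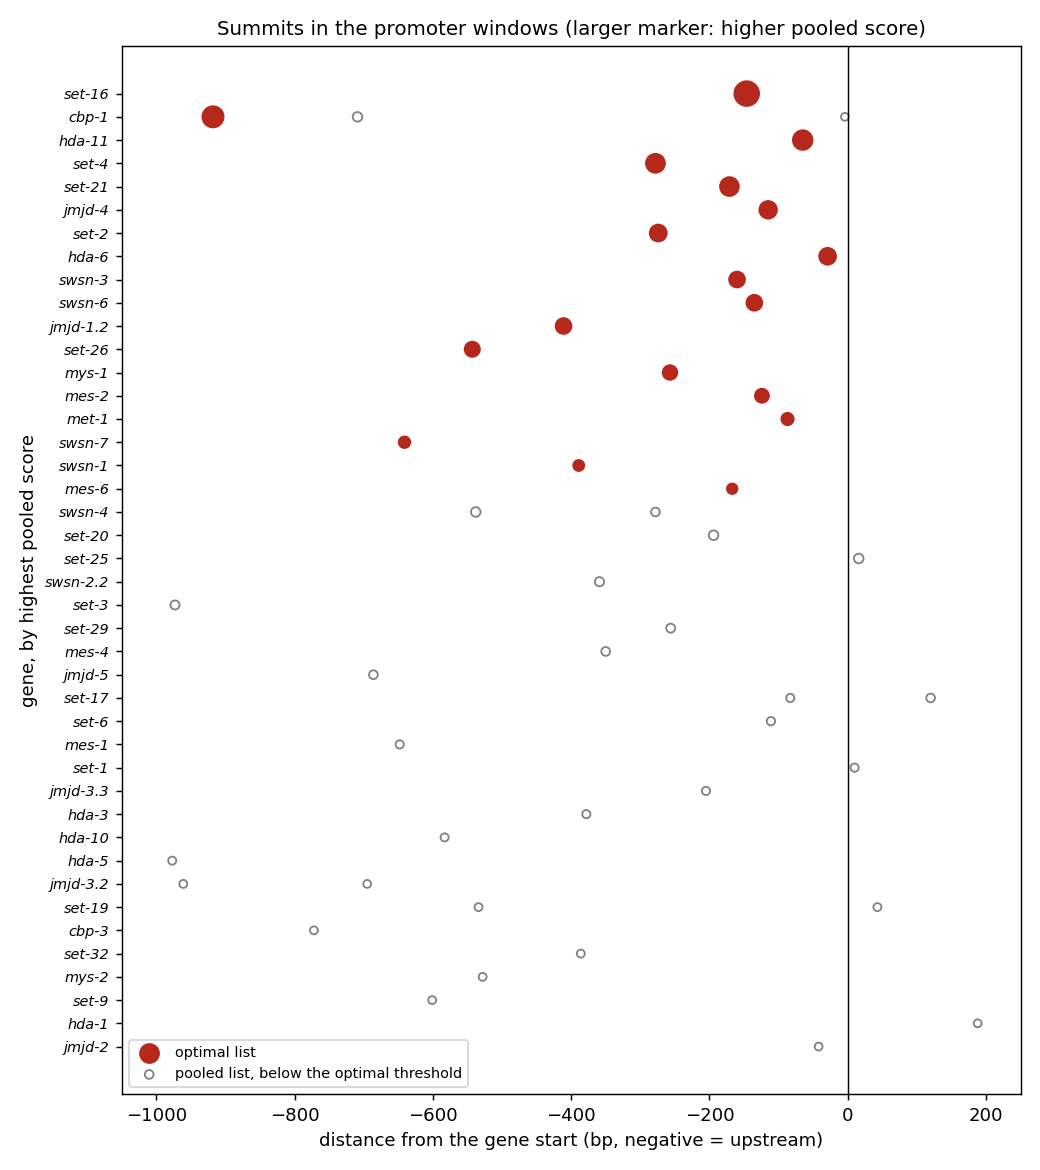
Position of every pooled summit in the promoter windows of the 42 members with one, in bp from the gene start. Filled points are in the optimal list and open points are below its threshold, with larger markers for higher scores. Filled points lie from -918 to -29 bp, and open points also lie inside the gene starts.

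Among the occupied members, 10 of 18 (55.6%) faced another gene, against 54.4% of all occupied genes. Of 18 members whose nearest upstream protein-coding neighbour is on the opposite strand within 2000 bp, 10 were occupied (55.6%, interval 33.7 to 75.4%), against 20.9% of all genes so placed. Where a same-strand gene ends within 500 bp upstream, 3 of 19 were occupied (15.8%), against 6.42%, and in the remaining open positions 4 of 29 (13.8%), against 5.60%. Of 3 members that start inside another gene 1 was occupied, against 6.03%. Facing pairs made up 26.1% of members and 25.0% of all genes, a like share. An optimal summit lay in the window of a second protein-coding gene for 9 of the 18, against 55.6% of all genes with a summit. Members whose optimal summit fell in no other protein-coding window numbered 9 of 69 (13.0%), against 4.27% of all genes. These 9 were cbp-1, mes-2, met-1, mys-1, set-2, set-4, swsn-1, swsn-3 and swsn-7. A protein-coding start nearer than the member's own was found for jmjd-1.2, set-21, set-26 and swsn-6, 4 of 18 (22.2%, against 29.2%). With noncoding genes counted as well, cbp-1 and swsn-7 were added, 6 of 18 (33.3%, against 40.2%).

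Worm genes close behind a same-strand neighbour can be transcribed together with it from 1 promoter, so the neighbour's window was read as well. Of the 16 such members without a summit of their own, 3 followed a gene with an optimal summit (18.8%), against 15.3% of all such genes. They were hda-2, which lies 70 bp behind the occupied swsn-7, mys-2, which lies 100 bp behind fld-1 (score 224.4), and mys-4, which lies 297 bp behind C34B7.1 (193.2). For the other 13, among them hda-3, hpl-2, met-2 and set-23, the neighbour had no optimal summit either. Whether these genes share transcripts was not tested.

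**Figure D5:**
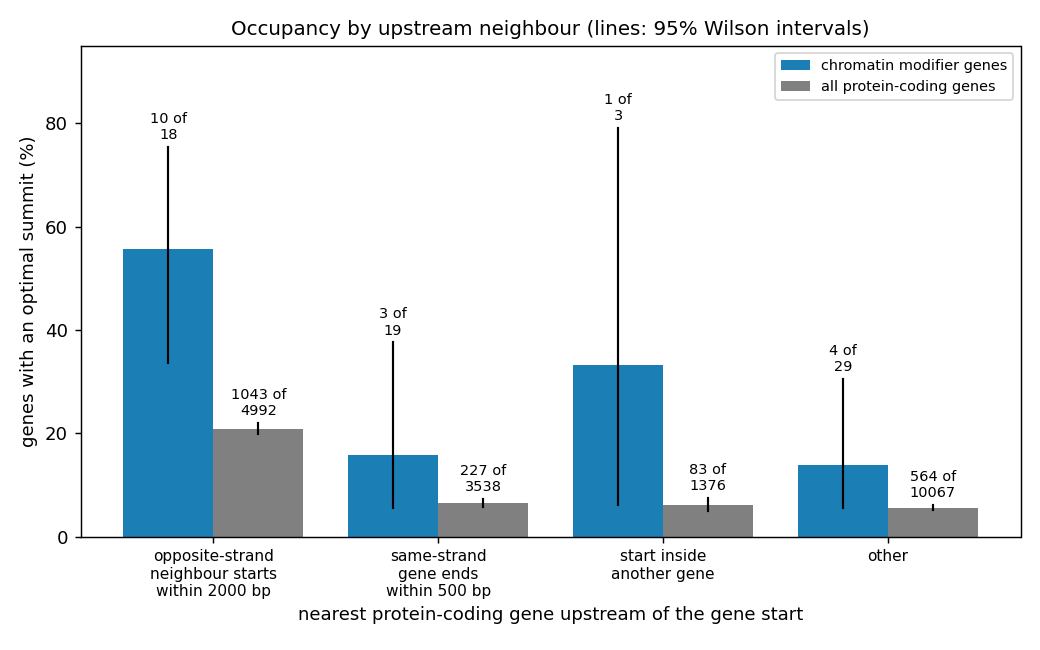
Percent of genes with an optimal summit by the nearest protein-coding gene upstream, for chromatin modifier genes beside all protein-coding genes, with 95% Wilson intervals and counts. The share of the members is highest where the neighbour is on the opposite strand, 10 of 18 against 1043 of 4992.

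By chromosome, IV had 6 of 10 members occupied (against 9.05% of all genes there), III had 5 of 13 (38.5%, against 14.6%), V had 3 of 9 (33.3%, against 6.81%) and II had 3 of 13 (23.1%, against 8.61%). On I it was 1 of 11 (9.09%, interval 1.62 to 37.7%), which cannot be told from the 13.4% of all genes there. None of the 13 members on X was occupied, a count of 0 that allows a share of up to 23.1% (3 counts of 13, with a Wilson upper limit of 22.8%), against 7.69% of all genes on X. On the autosomes the share was 18 of 56 (32.1%), against 9.90% of all autosomal genes. The X members are hda-4, hpl-1, jmjd-3.1, jmjd-3.2, jmjd-3.3, mes-1, set-6, set-8, set-12, set-19, set-20, set-28 and set-30. Pooled regions were present for 6 of them, with best scores of 30.5 to 65.5, the highest at set-20. At this number of genes a share equal to that of X as a whole could not be told from 0.

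At the summits themselves, GC content within 50 bp had a median of 49.5% for the members, against 46.5% for all 1367 optimal promoter summits and 34.7% for 6425 promoter summits below the threshold. It ran from 36.6% at mes-2 to 59.4% at set-26. The 4 motifs were taken from earlier results of these data, so their shares among optimal summits are no independent evidence. GAGAGA was present at 2 of 18 (hda-11 and swsn-1), against 20.4% of all optimal promoter summits and 8.84% of those below the threshold. CGCGCG was present at 3 (set-21, swsn-1 and swsn-7), against 7.32% and 1.28%. GACGCA was present at 2 (set-16 and jmjd-4), against 17.4% and 4.23%. ACATGT, the core known from mouse Iroquois proteins, was found at 1 (set-16), against 2.56% and 2.61%. In the printed site of set-16 the GACGCA and ACATGT matches stand 1 base apart. At the other 12 occupied members none of the 4 motifs was found, so each member share rests on 1 to 3 sites.

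Chromatin genes outside the naming rule were occupied in 31 of 82 cases (37.8%, interval 28.1 to 48.6%), against the same 9.60% of all genes. The list, of partners and relatives of the members, was drawn up with earlier results known, and 1 of its 83 names matched no protein-coding symbol. DREAM and synMuv B repressors were occupied in 7 of 11 cases, with the DREAM subunits lin-54 (score 728.3, rank 30) and lin-9 (553.4, rank 77) at the top, then efl-1 (372.5) and lin-35 (338.6), the worm E2F and Rb genes. Acetyltransferase genes were occupied in 4 of 6, led by hat-1 (437.0), and Polycomb-like proteins and readers in 6 of 13, led by sor-1 (410.1) and bet-2 (302.1). Methyltransferase partners were occupied in 4 of 11, led by dot-1.1 (255.8). Of the COMPASS genes among these partners, rbbp-5 (147.5) and dpy-30 (104.3) were occupied, wdr-5.1 had a pooled region of 78.1 below the threshold, and ash-2 and cfp-1 had no summit in any list. Remodellers were occupied in 4 of 13, with ruvb-2 highest (271.6), and histone chaperones in 3 of 9. Of the SWI/SNF genes among these remodellers, pbrm-1 was occupied (162.1). The genes snfc-5 (42.3), let-526 (47.1), dpff-1 (51.6) and phf-10 (72.2) had pooled regions below the threshold. Deacetylase complexes were occupied in 2 of 13, with lin-53 at 392.5, and demethylases in 1 of 6. On X, 4 of 8 genes of this list were occupied, among them bet-2, against 7.69% of all genes on X. These are few genes, listed with earlier results known, so no share for chromatin genes on X follows.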

How the data were processed

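The authors deposited peak lists in which each region has a score from their caller, on ce11 and ce10. Per the file headers in the notes deposited with them, replicate and pooled lists were derived from alignments with a control file, and the optimal list from these by cutting on the irreproducible discovery rate. Of the caller, the aligner, their versions and the formula of the score, none is given in the sources used here. The ce11 lists were used. Summits (region start plus the deposited offset) were set against protein-coding gene starts of Ensembl release 115 (WBcel235, the assembly of ce11), and sequence was read from the RefSeq copy of it. Of several summits in a window, the one with the highest score was taken. The assignment was tested on simulated data. Python 3.11.15, NumPy 2.4.6 and SciPy 1.17.1 were used. With 1 group, no contrast could be tested, and no p-value is given: shares have 95% Wilson intervals and stand beside those of all genes. Members, lists and motifs were chosen with earlier results of these data known. The genes named are all occupied members, the others by score or family, and the highest-scoring other chromatin genes. Alternatives covered the window, the assignment, the threshold, the overlap rule and each replicate. The grouping by upstream neighbour and the reading of tandem neighbours were chosen after the data were seen.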

Additional observations from a re-analysis of the deposited data

How the results depend on the processing

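The count of 18 occupied members was 15 in a window reaching 500 bp up and 100 bp down (without cbp-1, set-26 and swsn-7), 19 in the window of 2000 bp upstream (with set-15), 15 in the 1222 highest-scoring optimal peaks (without mes-6, swsn-1 and swsn-7), 14 by nearest gene start (without jmjd-1.2, set-21, set-26 and swsn-6), 19 by any overlapping base and 17 with both replicates' top regions required. Leaving out either replicate gave 17 to 19. Over all genes the count of 1917 moved to 1118 in those 1222 peaks. Leaving out either replicate gave 1845 to 1859 genes. The share of members in those 1222 peaks was 21.7%, against 5.60% of all genes. Member shares were 21.7% in the narrower window (7.68% for all genes), 27.5% in the wider (12.2%) and 20.3% by nearest start (7.27%). They were 27.5% by any overlapping base (10.3%) and 24.6% with both replicates' top regions required (7.50%). The 31 other chromatin genes became 23 in the narrower window, 37 in the wider, 22 in those 1222 peaks, 21 by nearest start, 26 with both replicates' top regions required, 31 by any overlapping base and 33 to 34 without either replicate. The median pooled score of 61.0 was 76.6 in the narrower window (48.0 for all genes), 54.8 in the wider (44.4) and 45.8 by nearest start (40.6). The median position of -169.0 bp moved to -160.0 bp in the narrower window and in those 1222 peaks, and to -163.5 bp by nearest start, which exceeds its spread between replicates (SD 2.12 bp). The median percentile of 88.9 was 91.0 in the narrower window and 84.7 in the wider, and 88.0 to 89.7 without either replicate. Of 35 alternative values, 29 stayed within their limits, 6 moved and 0 reversed. For counts the limit was a ratio of 1.5. The 2 percentiles of single replicates lie within the replicate SD of their own mean by construction, so they add no support. The narrower window and those 1222 peaks hold fewer peaks by construction, and the cause of the other moves was not tested. No paired analysis was possible because there is only 1 group. Depth is unknown, so missed weak sites cannot be told from unoccupied ones.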
